A study of Mus musculus with 2 samples.

Results

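Collecting duct principal cells of the postischemic mouse kidney were followed in 2 single-cell RNA libraries, and 64 of 7077 cell barcodes met the rule for them. After the data were seen, 18 of the 44 JPI-289 barcodes among them, which followed 1 common profile, were set aside. Values are for the 20 control and the 26 other JPI-289 cells unless all 44 are named. Compared to the control cells, the principal cells of the JPI-289 treated kidney held less RNA of Hsd11b2, the enzyme that keeps glucocorticoids from the mineralocorticoid receptor, of the duct transcription factor Tfcp2l1 and of Pdzk1ip1, with log2 ratios of -2.29, -1.18 and -1.66. They held more of Lgals3, Txnrd1 and Cd63, with log2 ratios of 3.03, 1.92 and 2.23. Few molecules of these genes were counted in the control cells (22, 6 and 18). They reached the minimum for a measured gene only through the JPI-289 cells, which favours high values there. In a wider set of duct cells, which holds these cells and is described below, the 6 genes were past 2-fold in the same direction. They are named here because both sets had them so, and Hsd11b2 helped to choose the cells of both. Of all 178 genes past 2-fold higher in the principal cells, 16 were so in the wider set, near the 7.96% of all its genes. Aqp2, injury genes as a group and ribosomal protein genes were not past 2-fold in the same direction there. The rule took barcodes with at least 1000 unique molecular identifiers (UMIs, 1 for each captured RNA molecule) and at most 50% of UMIs from mitochondrial (mt-) genes. They had to hold at least 4 UMIs, and at least 0.2% of all UMIs, of the principal cell markers Aqp2, Aqp3, Hsd11b2 and Fxyd4 together. Barcodes were left out with 4 or more UMIs of Sprr2f and Plet1, genes of stressed duct and urothelium. The rule also left out barcodes with 0.3% or more of UMIs from Slc12a3 and Calb1 (distal and connecting tubule), with 0.5% or more from Umod and Slc12a1 (thick ascending limb), or with more than 2 UMIs of Atp6v1g3, Atp6v0d2 and Foxi1 (intercalated cells). Both libraries came from kidneys of 9-week-old male C57BL/6 mice, taken 24 h after bilateral renal ischemia-reperfusion injury (IRI). The control mouse was given saline, and the JPI-289 mouse 100 mg/kg of JPI-289, an inhibitor of poly (ADP-ribose) polymerase, in both cases into the peritoneal cavity just before reperfusion. No unoperated kidney was analysed here. The control library held 38328760 UMIs and 3093 barcodes within the UMI and mt- limits, of which 20 were principal cells, and the JPI-289 library held 35548396 UMIs and 3984 such barcodes, of which 44 were principal cells. With 1 mouse per group, mouse, library and treatment cannot be told apart, no test between the conditions was possible, and the 95% intervals given here cover counting error only.

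Principal cells are the cells of the collecting duct that take up sodium and water under hormonal control. Vasopressin acts through its V2 receptor, Avpr2, and cyclic AMP to bring the water channel Aqp2 to the apical membrane, and water leaves through Aqp3 and Aqp4 on the other side. Aldosterone acts through the mineralocorticoid receptor, Nr3c2, and the kinase Sgk1 to keep the epithelial sodium channel (ENaC: Scnn1a, Scnn1b and Scnn1g) at the membrane. Hsd11b2 turns glucocorticoids into inactive forms, so that the receptor is left to aldosterone.

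The label was checked against markers that the rule did not use. A list of 12 further principal cell genes, among them ENaC, Avpr2, Gata3 and Kcnj1, held 69 UMIs over the control cells and 191 over the JPI-289 cells, 13.8 and 12.8 per 10000 UMIs. Of these 12 genes, Aqp4, Stmn1 and Elf5 were at 0 in the control cells, and Kcnj1 and Elf5 in the JPI-289 cells. Aqp2 helped to choose the cells and so does not check the label; it was found in 19 of 20 control and 44 of 44 JPI-289 members (median depths 2006 and 1501 UMIs), but in 6.82% of 176 control neutrophils (median 2230.5 UMIs), a cell type that should lack it. No cell barcode was shared between the members of the libraries, and 14 were shared among all kept barcodes. Members near the limit were common: 2 control cells and 10 JPI-289 cells held exactly 4 marker UMIs, while 2 and 5 barcodes that met every other condition held 3. The lowest marker share among members was 0.211% for control and 0.220% for JPI-289, and the highest among barcodes that failed only on it was 0.193% and 0.164%.

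A subset of the JPI-289 members stood apart from the rest. In 18 of the 44, the counts followed 1 common expression profile with a dispersion of 0.889 to 1.24, where 1 is counting noise around that profile; the other 26 started at 4.87 and the control cells at 3.14. These 18 barcodes were shallow, with 1007 to 1606 UMIs, and had an mt- share of 4.61% to 9.43%. The profile was started from kept JPI-289 barcodes with under 2000 UMIs. Each of those held at least 1 UMI of Sprr2f, of Atp6v1g3 and of the 4 markers together. It was then refitted in 3 rounds to the JPI-289 barcodes that followed it. Per 10000 UMIs the profile held 22.8 of Aqp2, 35.3 of Sprr2f and 7.15 of the intercalated gene Atp6v1g3. The starting choice favours a mix of these genes, so the mix is a description only. In the whole JPI-289 library 251 kept barcodes followed this profile, against 7 of the control kidney, which lay farther from it (lowest dispersion 1.70). Control barcodes were only compared with this JPI-289 profile, and no common profile was searched for in the control library. That favours a larger number in JPI-289, and members were set aside from that library alone. They are called uniform-profile barcodes here, and since the 18 members among them lay near counting noise around 1 profile, values are given for the 26 other members unless all 44 are named.

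**Figure D1:**
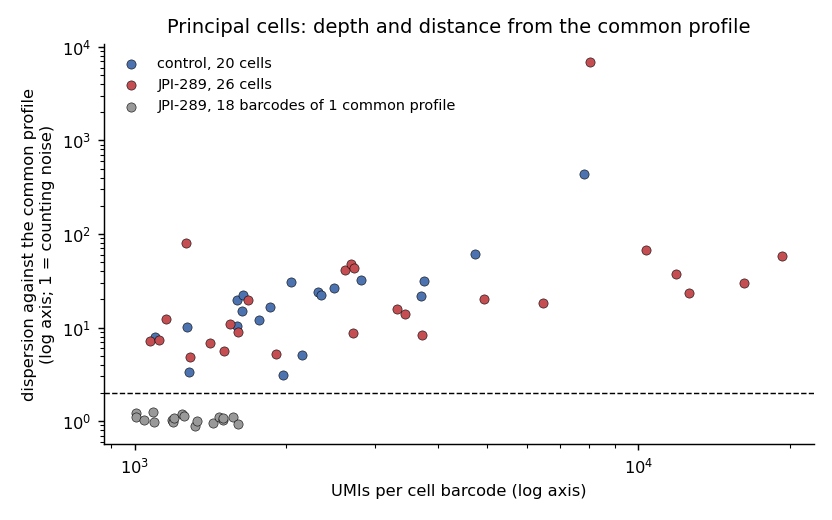
UMIs per barcode (x axis, log scale) against the dispersion of its counts around the common profile (y axis, log scale; 1 is counting noise) for the 20 control members, the 26 other JPI-289 members and the 18 uniform-profile members. The 18 lie between 0.889 and 1.24, below the dashed limit of 2, and every other member lies at 3.14 or more.

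The quality of the members also differed between the libraries. The 20 control cells summed to 49885 UMIs (1097 to 7817 per cell, median 2006) and the 26 JPI-289 cells to 126547 (1072 to 19299, median 2705.5). An mt- share of at least 30% was found in 10 of 20 control cells against 6 of 26 JPI-289 cells. Malat1, a nuclear RNA, made up at least 10% of UMIs in 7 control cells and in 1 JPI-289 cell. One or both of these held for 15 of 20 control cells and 7 of 26 JPI-289 cells, so that 5 control cells with 8637 UMIs were left without either. The limit on Sprr2f and Plet1 is a fixed number of UMIs. The 58 control barcodes it left out had a median of 10085 UMIs, and the 250 of JPI-289 a median of 1637, or 8980 for the 77 that were not uniform-profile. Results for genes and gene lists, but not the share of barcodes, are therefore also given for a wider set of 62 control and 90 JPI-289 cells. It was chosen by the same rule without the limit on Sprr2f and Plet1 and without uniform-profile barcodes. The median depths of these cells were close, 6741.5 and 6437.5 UMIs, and 42 and 83 of them had neither a high mt- nor a high Malat1 share. The added 42 and 64 cells all carried Sprr2f or Plet1, so the wider set holds cells with markers of both principal cells and stressed duct. The cells of the wider set, like the members, were selected on the 4 marker genes, so that the markers' levels within either set are descriptions.

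Principal cells made up 0.647% of kept control barcodes (95% interval 0.395 to 0.997, exact binomial) and 1.10% of kept JPI-289 barcodes (0.804 to 1.48). Without uniform-profile barcodes the shares were 0.648% (20 of 3086) and 0.696% (26 of 3733, 0.455 to 1.02), and the intervals overlapped nearly in full. At an mt- limit of 20%, with uniform-profile barcodes counted, they were 0.374% (0.180 to 0.687) and 1.01% (0.708 to 1.39), and the intervals did not overlap. The 36 JPI-289 members at this limit include all 18 uniform-profile members, whose mt- share was 9.43% or less. The share at this limit without them was not computed, so the gap between the intervals rests in part on these barcodes. A share of barcodes rests on how many cells of every other type were captured, and on markers whose own levels differed between the libraries.

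Aqp2, the vasopressin-regulated water channel (chr15:99579055-99584547, plus strand, GRCm38), was the most abundant of the 4 markers. Control members ran from 0 to 130 UMIs of Aqp2 per 10000, with a median of 16.1, and the 26 JPI-289 members from 7.32 to 197, with a median of 46.5. The groups overlapped over nearly all of the control range. Summed over cells, this was 21.0 per 10000 for the control and 58.8 for the JPI-289 members, a log2 ratio of JPI-289 over control of 1.48 (95% interval 1.19 to 1.79). Without members of high mt- or Malat1 share, Aqp2 was at 62.5 per 10000 in the 5 control cells and 58.8 in the 19 JPI-289 cells; 28 of the 54 control UMIs lay in 1 cell, and the other 4 cells stood at 40.1 per 10000. In the wider set its log2 ratio was -0.20 (-0.26 to -0.15), with cell medians of 38.1 and 45.3 per 10000, and over all barcodes of the libraries 11297 and 10079 UMIs gave -0.06. The 250 bases before its start site, from RefSeq (GRCm38.p6, chr15:99578806-99579055, plus strand), are shown because cyclic AMP is the second messenger of vasopressin; the partial site of the cyclic AMP response element, TGACG, searched on both strands, is in capitals.
Aqp2: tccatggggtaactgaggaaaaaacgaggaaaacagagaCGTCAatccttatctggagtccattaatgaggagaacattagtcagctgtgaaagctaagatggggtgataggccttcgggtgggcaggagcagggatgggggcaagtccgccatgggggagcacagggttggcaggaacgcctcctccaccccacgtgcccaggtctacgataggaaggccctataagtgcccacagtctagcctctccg
The 1 match lies on the opposite strand, 211 to 207 bases before the start. The partial site was found in 17.8% of 32851 such windows of all genes, and in 11 of the 26 windows of the 14 water transport genes that had one. These 11 windows belonged to 7 of the 14 genes, since a gene with several start sites counts more than once.

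Hsd11b2, the enzyme that guards the mineralocorticoid receptor (chr8:105518755-105523988, plus strand), was the marker that differed most. Control members held 0 to 54.8 UMIs of Hsd11b2 per 10000, with a median of 15.5, and the 26 JPI-289 members 0 to 18.1, with a median of 3.78. It was found in 17 of 20 control cells and 16 of 26 JPI-289 cells, and the highest JPI-289 cell lay only a little above the control median. The sums were 85 and 44 UMIs, 17.0 and 3.48 per 10000, a log2 ratio of -2.29 (95% interval -2.85 to -1.75). In the 5 control and 19 JPI-289 members without a high mt- or Malat1 share, 13 and 32 UMIs gave -2.43, but 9 of the 13 lay in 1 control cell, and without that cell the value was -1.15. With free RNA subtracted over all 44 JPI-289 members, which removed 96.1% of the JPI-289 UMIs, Hsd11b2 was at -0.84, short of 2-fold, and at -2.21 where the subtraction was set without hemoglobin genes. With every cell thinned to a depth of 1000 UMIs, 60% of control and 34.6% of JPI-289 cells still held a UMI, against 2.27% and 0.52% of neutrophils; unthinned, 85% and 61.5% of members did.

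Because the rule selected cells on Hsd11b2 itself, its level was also read in cells chosen without it. In cells chosen by Aqp2, Aqp3 and Fxyd4 alone (14 control and 22 JPI-289 cells), 39 and 38 UMIs gave a log2 ratio of -2.01 (-2.70 to -1.33). The 42 and 64 added cells of the wider set, which share no cell with the members, held 897 and 179 UMIs, a log2 ratio of -2.26 (-2.50 to -2.03), but they had passed the same condition on the 4 markers, Hsd11b2 included. Over all barcodes, where no cell was selected, the libraries held 2808 and 604 UMIs of Hsd11b2, a log2 ratio of -2.11. In bulk sums of this kind, fewer cells of a type and less RNA per cell cannot be told apart; the same sums gave -0.06 for Aqp2, -0.57 for Aqp3 and -0.61 for Fxyd4. Hsd11b2 was also lower in intercalated cells, with 290 and 21 UMIs (log2 ratio -3.10), and in stressed duct cells, with 1341 and 232 (-1.80), though the added cells of the wider set make up 42 of their 104 control cells and 64 of their 112 JPI-289 cells.

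Aqp3, the water channel of the basolateral side, and Fxyd4, a regulator of the sodium pump, differed less. Aqp3 summed to 19 and 99 UMIs in the members, a log2 ratio of 1.01 (95% interval 0.32 to 1.83), which fell short of 2-fold with all 44 JPI-289 members counted (0.91). Aqp3 was at -0.28 in the wider set and over all barcodes at -0.57. Fxyd4 summed to 36 and 138 UMIs in the members, a log2 ratio of 0.58 (0.06 to 1.17), and weighting each cell alike gave -0.07. The wider set had less Fxyd4 in the JPI-289 cells, with 2036 and 1367 UMIs and a log2 ratio of -0.68. Of the 4 markers, Hsd11b2 alone had the same direction in the members, the wider set and the whole libraries. The members and the wider set were chosen on the 4 markers together, so the directions there are descriptions and do not set Hsd11b2 apart.

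**Figure D2:**
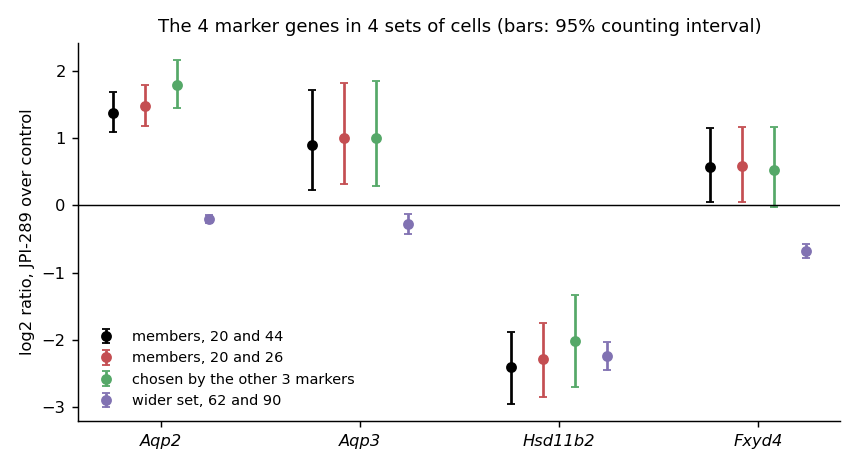
Log2 ratio, JPI-289 over control (y axis), of the 4 marker genes in the members (20 control cells with 44 or 26 JPI-289 cells), in cells chosen by the other 3 markers, and in the wider set (62 and 90 cells); bars are 95% counting intervals. Hsd11b2 lies at -2.01 or below in every set, whereas Aqp2, Aqp3 and Fxyd4 are above 0 in the members and below 0 in the wider set.

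**Figure D3:**
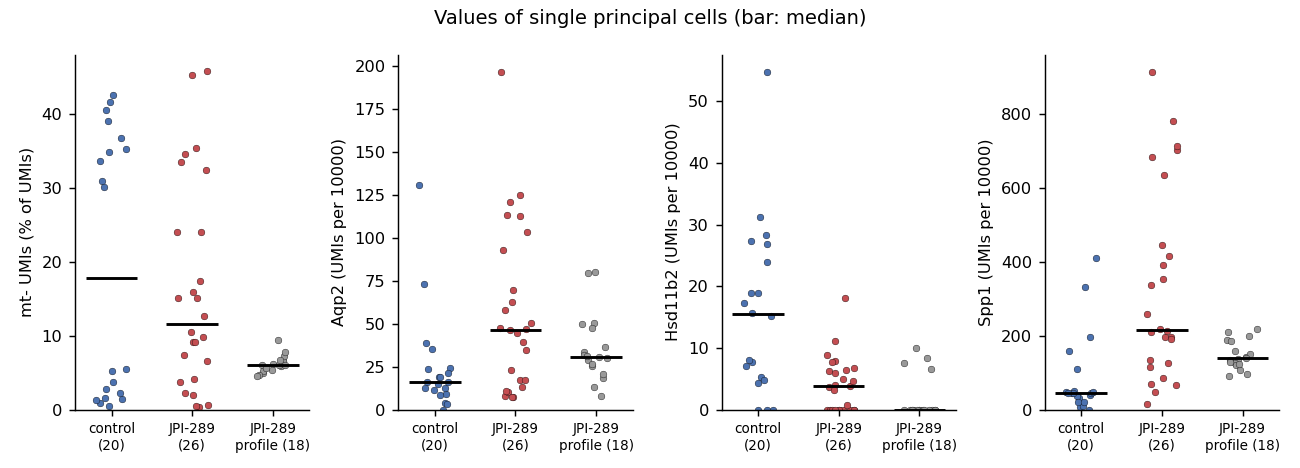
Values of single members (points; bar, median) in the 20 control cells, the 26 other JPI-289 cells and the 18 uniform-profile barcodes, as mt- UMIs in percent and as Aqp2, Hsd11b2 and Spp1 UMIs per 10000. Of the 20 control cells 10 lie at an mt- share of 30% or more, and Hsd11b2 is at 0 in most uniform-profile barcodes.

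Across all genes, the members of the JPI-289 kidney leaned to higher values. Of 410 genes measured (at least 50 UMIs over both libraries), 178 were past 2-fold higher (43.4%) and 26 past 2-fold lower (6.34%) in the JPI-289 members, with a median log2 ratio of 0.85 over all genes. With all 44 JPI-289 members, 187 of 467 genes were past 2-fold higher (40%) and 29 lower (6.21%), with a median of 0.79, and once centred on that median the split was 55 higher and 72 lower. In the wider set 3856 genes were measured, 307 past 2-fold higher (7.96%) and 231 lower (5.99%), with a median of 0.06. Of the 178 genes higher in the members, 95 were above 0 and 16 past 2-fold higher in the wider set, whereas of the 26 lower genes 24 were below 0 and 9 past 2-fold lower. These shares of all genes, 43.4% higher and 6.34% lower in the members and 7.96% higher and 5.99% lower in the wider set, are the background of each count of listed genes below. The minimum of 50 UMIs was set on the sum of both libraries, and the JPI-289 members held more UMIs in all. Of the 178 higher genes 169 had under 50 control UMIs, as did 352 of all 410 genes measured. Of the 58 genes with at least 50 control UMIs, 9 were past 2-fold higher. The minimum favours genes that are high in JPI-289, Lgals3, Txnrd1, Cd63 and Eif4ebp1 among them. A count of higher genes in the members therefore carries the shift of the whole profile, and a gene is described as different below where the wider set has it past 2-fold too.

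Of 19 listed genes of sodium transport and the aldosterone response, 8 were measured in the members, 1 past 2-fold higher (Sgk1) and 2 lower (Hsd11b2 and Fxyd2), with a median log2 ratio of 0.11, and in the wider set 16 were measured, 2 higher (Sgk1 and Per1) and 3 lower (Hsd11b2, Fxyd2 and Scnn1g), with a median of -0.17. With equal weight for each cell, the wider set had 1 higher and 5 lower and a median of -0.42. Scnn1a, the alpha subunit of ENaC, summed to 13 UMIs over control and 53 over JPI-289 members (log2 ratio 0.64, 95% interval -0.21 to 1.68). Scnn1a was at 0.64 in the wider set as well, Scnn1b, the beta subunit, at -0.36, and Scnn1g, the gamma subunit, at -1.15 with 102 and 49 UMIs. Scnn1a was thus short of 2-fold in both sets, and Scnn1g, with 12 and 20 UMIs, was not measured in the members. Sgk1 summed to 10 and 72 UMIs in the members, of which 1 JPI-289 cell held 40, and with equal weight for each cell its log2 ratio was -0.11. The 111 and 316 UMIs of Sgk1 in the wider set gave 1.40, or 0.83 with equal weight, which is short of 2-fold. Per1, a clock gene that aldosterone also raises, held 34 and 135 UMIs there, a log2 ratio of 1.87.

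Atp1b1, the beta subunit of the sodium pump, had a log2 ratio of 0.13 in the members and -0.22 in the wider set. Fxyd2, the pump's gamma subunit and a gene of the more proximal segments, summed to 64 and 22 UMIs, but 43 of the 64 came from 1 control cell. Of the wider set, 206 of 300 control UMIs of Fxyd2 came from 1 cell, and without the top cell of each library the log2 ratio was -0.71. Nr3c2 was too sparse for a ratio in the members, with 6 control UMIs and 0 of JPI-289, where a count of 0 allows up to 3. It stayed sparse in the wider set, at 21 and 3 UMIs.

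The water transport and vasopressin list had 4 genes measured in the members, of which Aqp2 and Aqp3 were past 2-fold higher and none lower, and Ezr, which links membrane proteins to actin, was at 0.62. Of the 18 listed genes, 13 were measured in the wider set, none past 2-fold higher and 2 lower. These 2 were Avpr2, the receptor of vasopressin, and Aqp4, the basolateral water channel that lets water out of the cell. With equal weight for each cell, 1 of the 13 was past 2-fold higher and 2 lower, and the list median was 0.06 where summed UMIs gave -0.24. Avpr2 held 95 control UMIs and 10 JPI-289 UMIs, a log2 ratio of -3.29 (95% interval -4.45 to -2.41), and was found in 27 of 62 control cells against 8 of 90 JPI-289 cells. Aqp4 held 191 and 28 UMIs (log2 ratio -2.85) in 27 and 16 cells. In the members both were near the floor, with 2 and 2 UMIs of Avpr2 and 0 and 3 of Aqp4, so these lower values rest on the added cells. Avpr2, Aqp4 and the other genes named from the wider set alone were singled out after their values had been seen.

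Potassium channels were not measured in the members, where Kcnj1, the secretory channel ROMK, held 4 control UMIs and 0 of JPI-289. The wider set had 5 measured, 1 of them past 2-fold lower: Kcnj16, a basolateral channel subunit, with 143 and 55 UMIs (log2 ratio -1.47). Kcnj1 held 33 and 8 UMIs there, below the minimum of 50.

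Among the transcription factors of duct identity, Tfcp2l1 alone was measured in the members. Tfcp2l1 (chr1:118627945-118685168), a factor of the collecting duct that patterns principal and intercalated cells, was found in 14 of 20 control cells and 13 of 26 JPI-289 cells, with medians of 4.15 and 0.777 per 10000. The sums of 25 and 28 UMIs gave a log2 ratio of -1.18 (95% interval -2.01 to -0.34), and the wider set, with 264 and 126 UMIs, gave -1.16 (-1.49 to -0.86). Of the 18 listed factors 15 were measured in the wider set, with none past 2-fold higher and 5 lower (33.3%, against 5.99% of all genes), and a median log2 ratio of -0.28 against 0.06 over all genes. Beside Tfcp2l1 these were Hoxb7 (43 and 22 UMIs), Elf5 (41 and 11), Tfap2b (42 and 12) and Hes1, a target of Notch signaling. Gata3, a factor needed for principal cells, was at -0.43 and Pax8 at 0.96. Pdzk1ip1, a small membrane protein of the tubule (chr4:115088708-115093899), was lower to a like degree. It held 50 and 40 UMIs in the members (log2 ratio -1.66, -2.30 to -1.04) and 816 and 281 in the wider set (-1.64). After thinning, Pdzk1ip1 was in 70% of control and 26.9% of JPI-289 members. In neutrophils it was in 10.2% and 1.74%, so it was lower in JPI-289 there too. With free RNA subtracted neither was past 2-fold lower, Tfcp2l1 at 0.16 and Pdzk1ip1 at -0.16, and with the subtraction set without hemoglobin genes Tfcp2l1 was at -0.87. Like Hsd11b2, both were also lower in intercalated cells (Tfcp2l1 -1.25, Pdzk1ip1 -1.92) and in distal and connecting tubule cells (-1.41 and -1.08).

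Of the tight junction and adhesion genes 6 were measured in the members, with a median of 0.65, below the 0.85 of all genes, and 1 was past 2-fold higher, under the 43.4% of all genes. This was Cldn7, a claudin of the distal tubule, with 19 and 166 UMIs (log2 ratio 1.75). Cldn7 was at 0.99 in the wider set, and Cldn4, its partner in the paracellular chloride path, at 0.72 in the members and 0.97 in the wider set. The kidney cadherin Cdh16 was lower in both, at -0.70 and -0.90, short of 2-fold.

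Of 19 listed injury genes, 11 were measured in the members, 6 past 2-fold higher (54.5%, against 43.4% of all genes) and none lower, with a median log2 ratio of 1.45 against 0.85, while the wider set had 15 measured, 2 higher (Lgals3 and Anxa1) and 1 lower (S100a6), with a median of -0.0021. Lgals3 alone was past 2-fold higher in both by summed UMIs, and with equal weight for each cell Spp1 was too (1.95 and 1.17). Lgals3, which encodes galectin-3 (chr14:47367751-47386160), was found in 11 of 20 control and 23 of 26 JPI-289 members, with medians of 2.61 and 10.7 per 10000. Its sums were 22 and 465 UMIs in the members, a log2 ratio of 3.03 (95% interval 2.44 to 3.75), and 838 and 2669 in the wider set, a log2 ratio of 1.57 (1.46 to 1.68). In members without a high mt- or Malat1 share, 10 and 459 UMIs of Lgals3 gave 1.75. Of the 10 control UMIs 6 lay in 1 cell, and without that cell the value was 2.56. Lgals3 is also abundant in neutrophils, and a UMI of it was present in 34.1% of control and 39.1% of JPI-289 neutrophils after thinning, against 30% and 65.4% of members. Spp1, which encodes osteopontin (chr5:104435118-104441050), ranged from 0 to 409 per 10000 in the control members with a median of 45.2, and from 15.5 to 914 in the JPI-289 members with a median of 215. Its log2 ratio was 1.77 (1.65 to 1.89) in the members and 0.89 in the wider set, where the cell medians were 50.5 and 269. Lcn2, a marker of tubule injury, held 46 and 606 UMIs in the members, of which 445 came from 1 JPI-289 cell, and was at -0.53 in the wider set, where 3929 of 9899 control UMIs came from 1 cell. Clu was at 0.82 and -0.04, and S100a6 at 1.45 in the members and -1.86 in the wider set, where 442 of its 1583 control UMIs came from 1 cell. In the wider set the injury genes thus lay on both sides of 0.

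Metallothioneins and genes of the NRF2 response to oxidants had a median above that of all genes in both the members and the wider set. In the members 5 of 16 listed genes were measured and all 5 were past 2-fold higher, against 43.4% of all genes under the same minimum. Their median log2 ratio was 1.29 against 0.85. The minimum favours genes that are high in JPI-289 (Mt1, Prdx1 and Txnrd1 had 39, 28 and 6 control UMIs). The count and median in the members are therefore descriptions only. The wider set had 14 measured, 4 past 2-fold higher (Txnrd1, Pgd, Hmox1 and Gclm; 28.6%, against 7.96% of all genes) and none lower, and 13 of the 14 lay above the all-gene median, with a list median of 0.52. With equal weight for each cell, 5 of the 14 were past 2-fold higher and the list median was 0.82. With free RNA subtracted over all 44 JPI-289 members the list median was -4.63 and Txnrd1 was short of 2-fold (0.97), and with the subtraction set without hemoglobin genes they were 1.37 and 2.16. Txnrd1, thioredoxin reductase (chr10:82833951-82897712), was found in 4 of 20 control and 17 of 26 JPI-289 members. It held 6 and 62 UMIs in the members (log2 ratio 1.92, 95% interval 0.82 to 3.53) and 203 and 678 in the wider set (1.64), in 36 of 62 and 71 of 90 cells. Among members without a high mt- or Malat1 share Txnrd1 was short of 2-fold (2 and 53 UMIs, 0.72), while the wider set without such cells gave 1.57. Both of the 2 control UMIs lay in 1 cell. Without that cell 0 control UMIs were left, and the value of 2.74 rests on the added 0.5 UMI. After thinning, 5% of control and 30.8% of JPI-289 members held a UMI of Txnrd1, against 12.5% and 11.3% of neutrophils. Pgd, of the pentose phosphate path, was at 1.54 in the wider set, and Gclm, of glutathione synthesis, at 1.04. Metallothionein Mt1 and peroxiredoxin Prdx1 were at 1.29 and 1.05 in the members and at 0.35 and 0.38 in the wider set. Both were also found more often in neutrophils of the JPI-289 library: after thinning, Mt1 was in 32.4% of control and 79.8% of JPI-289 neutrophils (members 50% and 73.1%) and Prdx1 in 24.4% and 37.2% (members 35% and 61.5%). Txnrd1 was at 1.77 in stressed duct cells, which include the added cells of the wider set, and at 0.56 in intercalated cells.

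The promoter of Txnrd1 is shown because Txnrd1 was past 2-fold higher in both sets. Of the 3 start sites of the gene, the window with most matches to the motif was taken. It was the only 1 of the 3 with a match, so that choice fixed the match in advance. The window (RefSeq, GRCm38.p6, chr10:82858956-82859205, plus strand) has the core of the antioxidant response element, TGACNNNGC, searched on both strands, in capitals.
Txnrd1: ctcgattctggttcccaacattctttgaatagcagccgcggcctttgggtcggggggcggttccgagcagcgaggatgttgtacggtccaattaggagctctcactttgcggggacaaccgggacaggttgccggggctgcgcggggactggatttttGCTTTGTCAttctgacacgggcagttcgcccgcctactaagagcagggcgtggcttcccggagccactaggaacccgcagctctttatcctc
The match lies on the opposite strand, 92 to 84 bases before the start. The core was found in 5 of the 16 windows of the 13 listed genes that had one (those of G6pdx, Gclm, Mt2, Prdx1 and Txnrd1) and in 10.2% of all 32851 windows.

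Immediate early genes, which switch on within minutes of a stimulus or of tissue handling, had 9 of 18 listed genes measured in the members, none past 2-fold higher and 6 lower (66.7%, against 6.34% of all genes), with a median log2 ratio of -1.66 against 0.85. With all 44 JPI-289 members 5 of the 9 were past 2-fold lower and the median was -1.21. With equal weight for each cell, without uniform-profile barcodes, 4 of the 9 were past 2-fold lower and the median was -0.72, against 0.48 of all genes. Without cells that held 3 UMIs of another cell type's markers, which left 2 control and 9 JPI-289 cells, the median was 0.16. Fos (chr12:85473890-85477273) was found in 13 of 20 control and 8 of 26 JPI-289 members, with 54 and 11 UMIs, a log2 ratio of -3.59 (95% interval -4.72 to -2.69). After thinning Fos was in 60% and 11.5% of members and in 49.4% and 34.3% of neutrophils, lower in JPI-289 in both cell types (unthinned, 70.5% and 52.9% of neutrophils). Jun was at -2.68, Btg2 at -2.60 and Atf3 at -2.58, while Jund was at 0.33. All 18 were measured in the wider set and 2, Fosb and Klf2, were past 2-fold lower (11.1%, against 5.99% of all genes), with a median of -0.26, and Fos was at -0.67 with 792 and 532 UMIs. The control members also had the larger number of cells with a high mt- or Malat1 share, and in members without such a share 3 and 10 UMIs of Fos gave -2.12, or -1.19 without the control cell that held 2 of the 3. The cyclic AMP partial site TGACG, in capitals, is shown in the window before the start of Fos (RefSeq, GRCm38.p6, chr12:85473640-85473889, plus strand), a classic target of this element.
Fos: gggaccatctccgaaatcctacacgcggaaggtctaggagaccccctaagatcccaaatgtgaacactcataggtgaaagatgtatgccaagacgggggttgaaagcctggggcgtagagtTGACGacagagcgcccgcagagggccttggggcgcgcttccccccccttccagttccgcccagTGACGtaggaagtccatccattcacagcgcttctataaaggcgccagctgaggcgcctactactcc
The 2 matches lie 129 to 125 and 66 to 62 bases before the start on the gene's own strand, and 9 of the 15 windows of listed genes, 1 for each gene found, held it, against 17.8% of all 32851 windows.

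Genes of protein synthesis and energy metabolism showed how far the members and the wider set parted. In the members 61 of 79 cytosolic ribosomal protein genes were past 2-fold higher and none lower, with a median log2 ratio of 1.38, and in the wider set 0 of 82 were past 2-fold either way, with a median of -0.35. Rpl32, for example, held 14 and 248 UMIs in the members and 2164 and 2112 in the wider set. With equal weight for each cell the median of the wider set was 0.19. Beside the 43.4% of all genes past 2-fold higher in the members and their median of 0.85, glycolysis genes were at a median of 1.02 in the members (4 of 7 past 2-fold higher) and -0.03 in the wider set (none of 12), and nuclear genes of oxidative phosphorylation at 0.60 (7 of 37 higher, or 6 of 41 with all 44 JPI-289 members) and -0.14 (none of 75 higher and 1 lower). Actin and migration genes were at 1.17 (6 of 11 higher) and 0.13 (none of 16 higher and 1 lower), and proteasome subunits at 1.05 (3 of 5 higher) and 0.41 (2 of 32 higher). Malat1 went the other way in the members, with 798 against 243 UMIs per 10000. In the wider set it was at -0.07 by summed UMIs, whereas the means over cells were 476 and 184 per 10000.

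**Figure D4:**
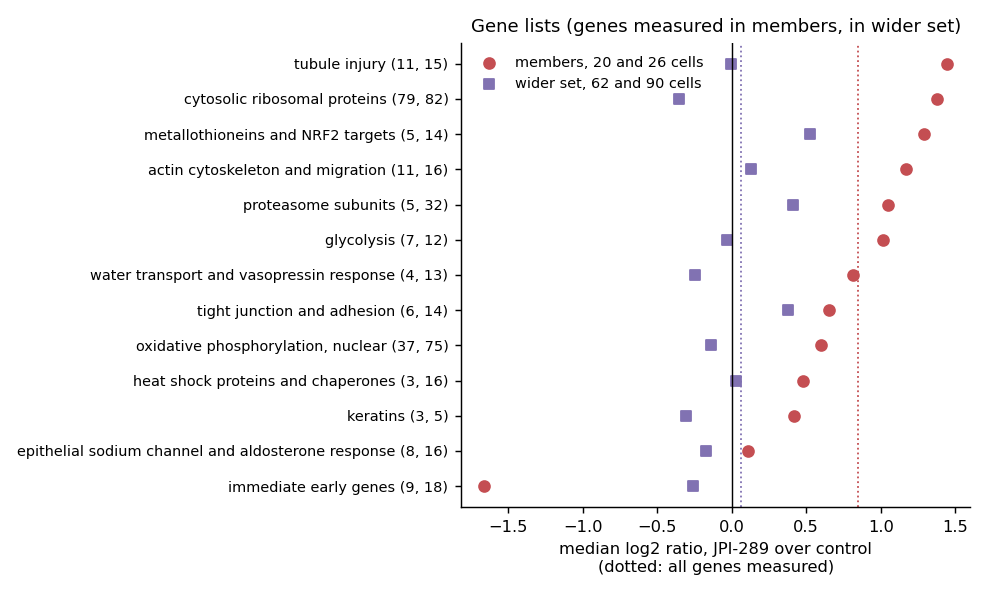
Median log2 ratio, JPI-289 over control (x axis), of 13 gene lists in the members (20 and 26 cells, circles) and the wider set (62 and 90 cells, squares), with the number of genes measured in each in brackets; dotted lines mark the medians over all genes, 0.85 and 0.06. Metallothioneins and NRF2 targets lie to the right of the dotted line in both sets, and ribosomal proteins are at 1.38 in the members and -0.35 in the wider set.

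Stress genes of the integrated stress and unfolded protein response were few in the members, with Eif4ebp1, a brake on translation, at 2 and 53 UMIs (log2 ratio 3.08) as the 1 gene measured. The wider set had 3 of 10 past 2-fold higher (30%, against 7.96% of all genes) and none lower, or 4 higher and 1 lower with equal weight for each cell. Slc3a2, the heavy chain of amino acid exchangers, was 1 of them, with 82 and 249 UMIs, and Eif4ebp1 was just short of 2-fold at 0.98. Of 7 p53 targets measured in the wider set (median 0.31), 1 was past 2-fold higher and none lower: Cdkn1a, which encodes the cell cycle inhibitor p21, with 78 and 305 UMIs (1.86). Btg2 was the 1 such gene measured in the members, at -2.60. Cd63, a lysosomal membrane protein, was found after thinning in 35% of control and 61.5% of JPI-289 members and in 35.8% and 47.8% of neutrophils, so that the control members did not exceed the neutrophils (unthinned, 55% and 84.6% of members, 61.9% and 74.6% of neutrophils). By summed UMIs Cd63 was past 2-fold higher in both sets, at 2.23 with 18 and 219 UMIs and at 1.19 with 447 and 1092. Fatty acid oxidation, osmolyte, NF-kB and cytokine, cell cycle, and PARP and NAD enzyme genes had no gene measured in the members. Parp1, the main target of PARP inhibitors, held 2 and 1 UMIs in the members and 14 and 4 in the wider set, too few for a ratio.

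**Figure D5:**
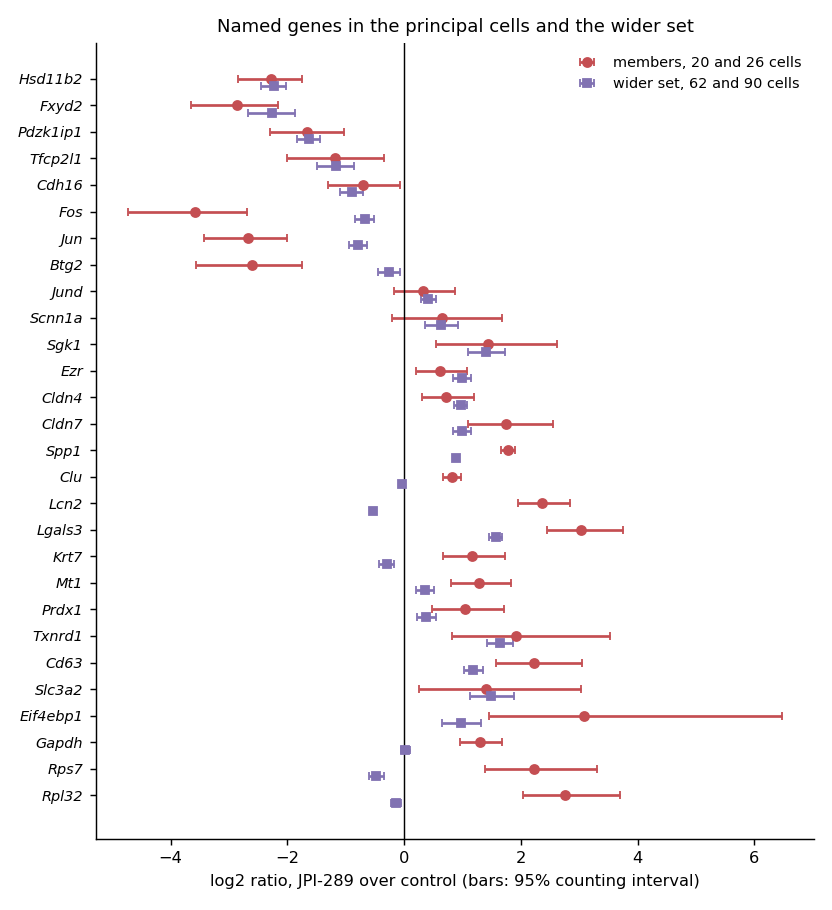
Log2 ratio, JPI-289 over control (x axis), of named genes in the members (20 and 26 cells, circles) and the wider set (62 and 90 cells, squares), with 95% counting intervals as bars. Hsd11b2, Pdzk1ip1 and Tfcp2l1 lie past 2-fold lower and Lgals3, Txnrd1 and Cd63 past 2-fold higher in both sets, while Clu, Lcn2, Krt7, Rps7 and Rpl32 lie on opposite sides of 0; 1 control cell of the wider set holds 206 of 300 control UMIs of Fxyd2.

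The 42 and 64 added cells share no cell with the members but come from the same 2 libraries. Of the 26 genes past 2-fold lower in the members, all measured in the added cells, 8 were past 2-fold lower there too. Hsd11b2 and Calb1 are among the 8, but the rule chose or limited the cells of both sets on these genes; the others were Tfcp2l1, Pdzk1ip1, Pkhd1, Cdo1, Klk1 and Fxyd2. Of these, Fxyd2 had 206 of its 236 control UMIs in 1 added cell, and without the top cell of each library it was above 0 (0.45). Klk1 had 1020 of 1521 in 1 cell and was at -1.72 without the top cells. In the added cells 285 of 3427 genes were past 2-fold higher and 211 lower. Of the 178 higher genes, 175 were measured in the added cells and 13 were past 2-fold higher there. This is no larger a share than that of all genes, so higher values in the members did not recur beyond the background. The 13 include Lgals3, Txnrd1, Cd63, Sgk1, Car2 and Nfe2l2, which encodes NRF2 itself.

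Markers of other cells moved with some of these results. Distal and connecting tubule markers stood at 80.6 per 10000 in the control members and 10.4 in the 26 JPI-289 members, most of it Klk1, of which 261 of 366 control UMIs lay in 1 cell. Klk1, Calb1 and Fxyd2 are genes of that segment, and the part of such cells in the lower values of these 3 genes was not tested. Hsd11b2 was shared with these cells: the control cell with 261 Klk1 UMIs also held the most Hsd11b2, 21 of 85 UMIs, and the 4 control members with at least 10 Klk1 UMIs held 39 of the 85. Without members of at least 10 Klk1 UMIs, 46 and 38 UMIs of Hsd11b2 in 16 and 23 cells gave a log2 ratio of -1.96. Proximal tubule markers stood at 21.4 and 10.8 per 10000, led by Gpx3, and endothelial markers at 14 and 27 UMIs. The 7 neutrophil markers were at 0 in the control members and summed to 133 UMIs in the 26 JPI-289 members, 130 of them in 1 cell, and red blood cell markers summed to 3 and 1360, 1350 of them in 1 cell. Intercalated cell markers summed to 21 and 3 UMIs, 18 of the 21 in 1 control cell, macrophage markers to 0 and 1, stromal markers to 1 and 2, and thick ascending limb markers to 7 and 9 with Slc12a1 at 0. Stressed duct and urothelium markers, which the rule limited, summed to 17 and 30. The high values of hemoglobin and neutrophil genes in the JPI-289 members are therefore those of 2 cells.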

How the data were processed

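Single-cell RNA was captured with a 10x Genomics 5′ kit from 1 control and 1 JPI-289 treated postischemic kidney. The authors counted reads with Cell Ranger 5.0.1 on build mm10, and the deposited unfiltered matrices hold whole-number UMI counts per gene and barcode. Barcodes with at least 1000 UMIs and at most 50% mt- UMIs were kept, no doublet caller was run, and cells were chosen by marker counts. Counts of each gene were summed over the cells of a library. Ratios are log2 of shares of UMIs after adding 0.5 UMI, with exact 95% intervals, and a gene was measured with at least 50 UMIs over both libraries. Detection was compared after thinning each cell to 1000 UMIs. No test was run, since each group is 1 library. Coordinates are GENCODE genes of GRCm38, and promoters are from RefSeq. Named genes were the markers, the most abundant and extreme members of each of 24 gene lists, and the 10 highest and 10 lowest ratios. The members, lists and rules were chosen with earlier results of these data known. Of the alternatives, 15 were planned and others, the wider set and the removal of uniform-profile barcodes among them, were added after seeing the data. The steps were checked on simulated counts. Python 3.11.15, numpy 2.4.6, scipy 1.17.1, pandas 2.3.3 and matplotlib 3.10.9 were used.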

Additional observations from a re-analysis of the deposited data

How the results depend on the processing

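No paired analysis was possible because each group is 1 library, and no replicate could be left out. Over the alternatives in which a gene reached 50 UMIs, Hsd11b2 had a log2 ratio of -3.20 to -1.90 other than with free RNA subtracted, where it was short of 2-fold at -0.84, as were Pdzk1ip1 at -0.16 and Txnrd1 at 0.97. Lgals3 had a log2 ratio of 1.30 to 4.08 and Cd63 of 1.05 to 3.91. Without cells that held 3 UMIs of another cell type's markers, 2 control and 9 JPI-289 cells were left, and Hsd11b2 did not reach 50 UMIs. Of the values recomputed for gene lists, 145 kept within the spread, 60 moved and 11 reversed, and of those for named genes 599, 274 and 37.

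The share of control principal cells was 0.374% at an mt- limit of 20%, 0.259% at a marker share of 0.5% and 2.005% without the limit on Sprr2f and Plet1. The JPI-289 share was 0.624% at 2000 UMIs, 0.602% at a marker share of 0.5%, 6.401% without the limit on Sprr2f and Plet1 and 0.696% without uniform-profile barcodes. Genes past 2-fold higher and lower, 187 and 29 with all members, were 68 and 10 at a marker share of 0.5%, 431 and 273 without the limit on Sprr2f and Plet1, 113 and 18 without the deepest 5% of cells and 77 and 16 without cells of 3 other markers' UMIs. They were 55 and 72 centred on the median, 442 and 109 at a minimum of 20 UMIs, 53 and 11 at 200, 101 and 44 scaled without mt-, Malat1 and rRNA-type genes, and 307 and 231 in the wider set (405 and 379 with equal weight for each cell, 304 and 231 without cells of high mt- or Malat1 share). Higher genes alone moved to 110 at 500 UMIs, 99 at an mt- limit of 20% and 117 with equal weight without uniform-profile barcodes, and lower genes alone to 135 with free RNA subtracted and 44 at a 1.5-fold call.

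Without the limit on Sprr2f and Plet1 the medians reversed for tubule injury (-0.0315), glycolysis (-0.0371) and ribosomal proteins (-0.487), as did Aqp2 (-0.443), Lcn2 (-0.831), Krt7 (-0.424), Rpl32 (-0.294), Rps7 (-0.604), Rpl18 (-0.533), Rpl8 (-0.146) and Gapdh (-0.0816). In the wider set these medians were -0.0021, -0.0305 and -0.352, with Aqp2 at -0.202, Lcn2 at -0.534, Krt7 at -0.294, Rpl32 at -0.136, Rps7 at -0.475, Rpl18 at -0.353 and Rpl8 at -0.0532. With equal weight there, Aqp2 was at -0.118, Lcn2 at -0.195 and Krt7 at -0.0285. Without its cells of high mt- or Malat1 share the medians were -0.0311, -0.0422 and -0.442, with Aqp2 at -0.278, Lcn2 at -0.629, Krt7 at -0.342, Rpl32 at -0.230, Rps7 at -0.578, Rpl18 at -0.444, Rpl8 at -0.148, Gapdh at -0.0649 and Malat1 at 0.544. Free RNA subtraction reversed the median of metallothioneins and NRF2 targets (-4.63), Tfcp2l1 (0.156, or -0.871 set without hemoglobin genes), Mt1 (-5.98), Prdx1 (-5.39), Esd (-2.70) and Gapdh (-6.80); it removed 96.1% of the JPI-289 UMIs, set by hemoglobin in 1 cell, against 21.7% with hemoglobin genes left out. Without cells of 3 other markers' UMIs the immediate early median was 0.163 and Prdx1 -0.193. Sgk1 was at -0.229 and Ptges at -0.149 with equal weight for each cell, Sgk1 at -0.110 with equal weight and without uniform-profile barcodes, and Sprr2f at -0.261 without the top cells. The cause of these moves was not tested. Without uniform-profile barcodes, 410 genes were measured in the members and 3856 in the wider set.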
